A study of Mus musculus with 6 samples.

Results

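The platelet-derived growth factor (PDGF) system was read out through 6 genes, the receptors Pdgfra and Pdgfrb and the ligands Pdgfa, Pdgfb, Pdgfc and Pdgfd, in fibroblasts sorted from mouse lung tumours. They were taken by gene symbol from the 55298 genes in the files, and all 6 were above 0 in every library. RNA-seq libraries came from 3 sorts of fibroblasts with surface MHC class II (apCAFs 1, 2 and 3, antigen-presenting cancer-associated fibroblasts) and 3 sorts of fibroblasts without it (nonapCAFs 4, 5 and 6). Per the labels, both groups came from orthotopic lung tumours of wt C57BL/6 mice over 8 weeks old, and the tumours were pooled before each of 3 independent experiments, so a library does not stand for an animal. The gate for both groups took large cells that were CD45-, CD31-, EPCAM- and mCherry- and that stained for PDPL, as the labels spell it, and for PDGFRa. PDGFRA protein was thus required on every sorted cell of both groups, and only MHCII differed between the gates. The comparison asks how the class II-positive fibroblasts differ from the class II-negative ones in the same tumours.

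PDGFs are secreted dimers that make their receptor tyrosine kinases pair and signal to growth, migration and survival. Chains A and C act mainly through receptor alpha, chain B binds both receptors and chain D acts mainly through receptor beta. In lung, receptor alpha is a general fibroblast marker, receptor beta is found on pericytes and many fibroblasts, and chain A from epithelium is known to be needed for alveolar myofibroblasts.

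Values are normalized counts, scaled between libraries and rounded by the authors, so sequencing depth is unknown and no counting interval is given. Means are given ± SD (n = 3 libraries per group). limma gave the fold changes, taken from log2(value + 1), with their standard errors (SE), and p-values are adjusted over all 36443 genes above 0 in at least 1 library. The libraries were not equally alike. Over the 17829 genes whose mean value reached 100, apCAFs 1 and 2 differed by an SD of 0.238 in log2 ratio and nonapCAFs 4 and 5 by 0.246, against 0.687 to 0.708 for apCAFs 3 with the other apCAFs and 0.479 to 0.495 for nonapCAFs 6 with the other nonapCAFs. The p-values measure the spread between these libraries, and the labels do not say which of them share an experiment. The 4 class II genes of the gate were 54.3- to 82.6-fold higher in apCAFs, which checks the labels. Of 8 fibroblast markers, 4 rose in apCAFs, among them Col1a1 (3.08-fold, limma adjusted p = 0.0273), and Lum, a collagen-binding proteoglycan, ran the other way without passing (log2 -0.89, limma adjusted p = 0.0952). Over all tested genes, 3.91% were higher in apCAFs in limma.

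Both receptors were higher in every apCAFs library than in any nonapCAFs library, as were Pdgfd and Pdgfb, while Pdgfa and Pdgfc were lower in every apCAFs library. Only Pdgfd passed the limma test. It was 4.99-fold higher in apCAFs. Thus 1 of 6 genes was called, against a background of 4.40% of all tested genes (3.91% higher and 0.486% lower in apCAFs). At an unadjusted p under 0.05 in limma there were 4, Pdgfra, Pdgfrb, Pdgfb and Pdgfd, all higher in apCAFs. Over all 36443 tested genes, 7021 reached this level (4764 higher and 2257 lower in apCAFs). The groups did not overlap for any of the 6 genes, which was the case for 32.5% of all tested genes (17.1% higher and 15.4% lower in apCAFs). Their fold changes had a median of 1.29 on the log2 scale, beside -0.04 over all tested genes. In the authors' deposited table, which holds DESeq2 tests of the same libraries, Pdgfra, Pdgfrb, Pdgfb and Pdgfd were higher and Pdgfa lower at an adjusted p under 0.05, where 30.3% of genes with an adjusted p were called (20.6% higher and 9.77% lower).

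**Figure D1:**
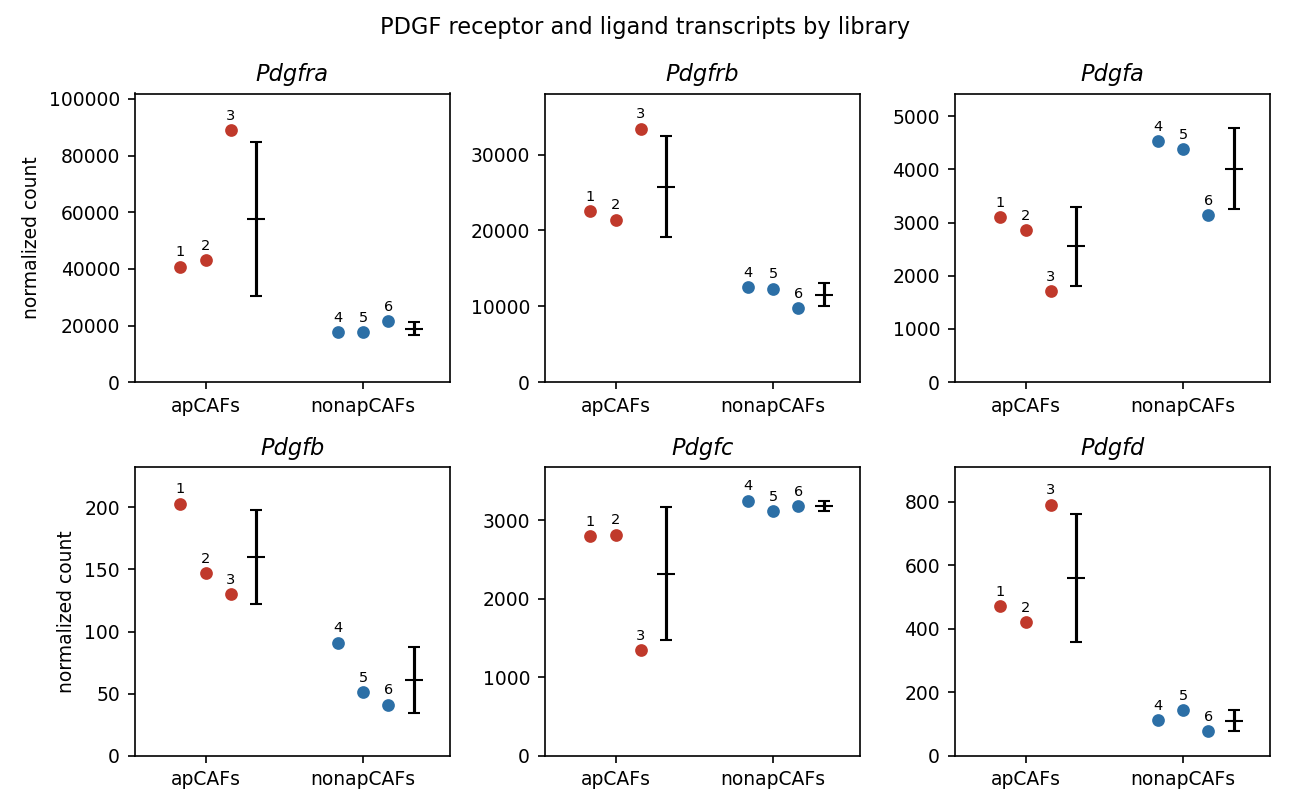
Normalized counts of the 6 PDGF genes in each library, with library numbers above the points and the mean ± SD (n = 3) beside them; each panel has its own axis from 0. Pdgfra, Pdgfrb, Pdgfb and Pdgfd are higher and Pdgfa and Pdgfc lower in all apCAFs libraries, and apCAFs 3 stands away from the other apCAFs libraries for every gene but Pdgfb.

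Pdgfra, the gene of receptor alpha and of the protein used in the gate, lies on chromosome 5 (75152292 to 75198215, plus strand, mm10). It had 40769, 43116 and 89023 in apCAFs 1, 2 and 3, against 17628, 17653 and 21525 in nonapCAFs 4, 5 and 6. All apCAFs lay above all nonapCAFs, and apCAFs 3 stood far above the other apCAFs libraries. The means were 57636 ± 27207 in apCAFs against 18935 ± 2243 in nonapCAFs. The difference was 2.86-fold (log2 1.52, SE 0.35, 95% interval 0.64 to 2.39) and did not pass in limma (adjusted p = 0.0855). Without apCAFs 3 the spread was smaller and the difference passed (log2 1.15, limma adjusted p = 0.0337). With apCAFs 3 alone against the nonapCAFs the log2 fold change was 2.24. The authors' deposited table called it (log2 1.61, DESeq2 adjusted p = 2.81e-06). Exons of Pdgfra overlap the annotated transcripts Gm42802, Gm42803 and Mir7025. The highest of these, Mir7025, read 647 to 1175 in apCAFs and 286 to 312 in nonapCAFs, far under the gene itself.

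Pdgfrb, the gene of receptor beta, lies on chromosome 18 (61045150 to 61085061, plus strand). It had 22501, 21412 and 33405 in apCAFs 1, 2 and 3, against 12532, 12330 and 9778 in nonapCAFs 4, 5 and 6. The lowest apCAFs library was well above the highest nonapCAFs library. The means were 25773 ± 6632 in apCAFs against 11547 ± 1535 in nonapCAFs. The difference was 2.20-fold (log2 1.14, SE 0.23, 95% interval 0.54 to 1.73) and did not pass in limma (adjusted p = 0.0679). The authors' deposited table called it (log2 1.16, DESeq2 adjusted p = 1.01e-06). It passed in limma where fewer low genes were tested or the variance was modelled by level, for example when only genes whose mean reached 100 were tested (limma adjusted p = 0.0182). In bulk RNA, a larger share of cells with a transcript and more of it per cell cannot be told apart.

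Pericytes are the other lung cells known for receptor beta. Of 9 pericyte and smooth muscle markers, 4 rose in apCAFs in limma (Des, Abcc9, Kcnj8 and Notch3), and 7 were higher in the authors' deposited table. Over all tested genes, 3.91% were higher in limma, and 20.6% of genes with an adjusted p were higher in that table. The summed level of the pericyte and smooth muscle list was 37760 to 40608 in apCAFs and 10152 to 14030 in nonapCAFs. Rgs5, a defining pericyte gene, read 13, 24 and 53 in apCAFs 1, 2 and 3 and 76, 31 and 227 in nonapCAFs 4, 5 and 6. Cspg4, which encodes the pericyte proteoglycan NG2, averaged 732.7 ± 155 in apCAFs against 318.7 ± 101.5 in nonapCAFs and did not pass (limma adjusted p = 0.107). Mesothelial markers moved as well: 6 of 7 rose in limma, from 11.9-fold (Msln) to 60.9-fold (Lrrn4), and 6 were higher in the authors' deposited table. Bnc1, the remaining marker, overlapped between groups (log2 0.06). The summed level of the mesothelial list was 36818 to 47728 in apCAFs and 5073 to 5863 in nonapCAFs, where Bnc1 made up most of it. The part of these cells in the receptor values was not tested.

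The balance of the receptors was compared within each library, where scaling between libraries has no effect. The log2 ratio of Pdgfra over Pdgfrb was 0.86, 1.01 and 1.41 in apCAFs 1, 2 and 3, against 0.49, 0.52 and 1.14 in nonapCAFs 4, 5 and 6. NonapCAFs 6 lay among the apCAFs, so the groups overlapped. The ratio averaged 1.09 ± 0.29 in apCAFs against 0.72 ± 0.37 in nonapCAFs, a difference of 0.38 (exact two-sided permutation test, p = 0.3, where 0.1 is the smallest p that 3 against 3 allows). The difference could not be told from the spread between libraries. It was 0.22 without apCAFs 3 and 0.59 without nonapCAFs 6.

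Pdgfd, the gene of the chain that acts mainly through receptor beta, lies on chromosome 9 (6168584 to 6378850, plus strand). It had 470, 420 and 791 in apCAFs 1, 2 and 3, against 111, 144 and 77 in nonapCAFs 4, 5 and 6. The groups stood well apart, with apCAFs 3 the highest and nonapCAFs 6 the lowest library. The means were 560.3 ± 201 in apCAFs against 110.7 ± 33.5 in nonapCAFs, and Pdgfd rose 4.99-fold (log2 2.32, SE 0.35, 95% interval 1.43 to 3.21, limma adjusted p = 0.0326). The authors' deposited table gave log2 2.33 (DESeq2 adjusted p = 3.86e-09). The size of the difference was stable and its call was not. Leaving out apCAFs 1, apCAFs 2, nonapCAFs 4, nonapCAFs 5 or nonapCAFs 6 gave limma adjusted p = 0.0873, 0.0739, 0.112, 0.0761 and 0.0769, and leaving out apCAFs 3 gave 0.0498, with log2 fold changes of 2.04 to 2.53. With an experiment term under each possible pairing the adjusted p was 0.114 to 0.147, and no gene at all was called. Leaving out a library and adding an experiment term both give fewer degrees of freedom than the full fit.

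Pdgfb, the gene of the chain that binds both receptors, lies on chromosome 15 (79995874 to 80014977, minus strand) and was the faintest of the 6. It had 203, 147 and 130 in apCAFs 1, 2 and 3, against 91, 51 and 41 in nonapCAFs 4, 5 and 6. The groups did not overlap, but the lowest apCAFs value and the highest nonapCAFs value were close. The means were 160 ± 38.2 in apCAFs against 61 ± 26.5 in nonapCAFs. The difference was 2.70-fold (log2 1.43, SE 0.36, 95% interval 0.53 to 2.33) and did not pass (limma adjusted p = 0.105). The authors' deposited table called it (log2 1.37, DESeq2 adjusted p = 0.00682).

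Endothelial cells, platelets and macrophages are known sources of chain B, and the CD31- and CD45- gate of both groups selects against endothelial cells and macrophages. As background, 4.40% of all 36443 tested genes were called in limma. At an unadjusted p under 0.05 in limma, 4764 of them were higher and 2257 lower in apCAFs. Among genes with an adjusted p, 20.6% were higher and 9.77% lower in the authors' deposited table. None of the 7 endothelial markers was called in limma (0 at an unadjusted p under 0.05, and 0 in the authors' deposited table), and their summed level was 349 to 699 in apCAFs and 296 to 451 in nonapCAFs. Of 6 platelet and megakaryocyte markers 0 were called (0 at an unadjusted p under 0.05 in limma, and 0 in the authors' deposited table), with a summed level of 4655 to 5502 in apCAFs and 2668 to 4171 in nonapCAFs. Most of that sum came from Itgb3, Gp1bb and Itga2b. Of 7 macrophage markers, 0 were called in limma (2 higher at an unadjusted p under 0.05, and 3 higher in the authors' deposited table), with a summed level of 3981 to 11736 in apCAFs and 1425 to 2274 in nonapCAFs. Lyz2, a lysozyme gene that alveolar epithelium also expresses, made up most of that sum in apCAFs 1 and 2, with 9898, 9470 and 640 in apCAFs 1, 2 and 3, against 470, 1028 and 226 in nonapCAFs 4, 5 and 6. Ptprc, the CD45 gene, read 22 to 65 in apCAFs and 2 to 34 in nonapCAFs. Among the platelet genes, Pf4 read 7 to 69 in apCAFs and 9 to 27 in nonapCAFs, Ppbp read 4 to 27 in apCAFs and 11 to 41 in nonapCAFs, and Gp9 was at 0 in every library but apCAFs 3, where it read 8. With a limma background of 4.40%, lists of 6 or 7 genes can hold 0 calls whether or not these cells are present. The part of these cells in the Pdgfb values was not tested.

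Pdgfa, the gene of the chain that signals through receptor alpha, lies on chromosome 5 (138976014 to 138997370, minus strand). It had 3097, 2858 and 1704 in apCAFs 1, 2 and 3, against 4524, 4381 and 3136 in nonapCAFs 4, 5 and 6. The groups did not overlap, by a narrow margin, since apCAFs 1 lay just under nonapCAFs 6. The means were 2553 ± 745 in apCAFs against 4014 ± 763 in nonapCAFs, a log2 fold change of -0.68 (SE 0.30, 95% interval -1.44 to 0.08) that did not pass (limma adjusted p = 0.296). The authors' deposited table listed it just under the threshold (log2 -0.65, DESeq2 adjusted p = 0.049). Without apCAFs 3 the log2 fold change was -0.41 (limma adjusted p = 0.388). An exon overlaps 6330403L08Rik on the other strand, which read 787 to 1084 in apCAFs and 981 to 1199 in nonapCAFs, and the strand setting of the counting is not given in the sources used here.

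Epithelium is a known source of chain A. Of 8 epithelial markers 1 rose in limma, Krt19 (3 were higher at an unadjusted p under 0.05, and 6 in the authors' deposited table), beside 3.91% of all tested genes higher in limma and 20.6% in that table. Their summed level was 8540 to 86372 in apCAFs and 7416 to 10622 in nonapCAFs. Sftpc, a surfactant gene of alveolar type II cells, was at 48853, 40491 and 226 in apCAFs 1, 2 and 3, against 124 to 185 across nonapCAFs. Krt19 was at 3451, 3410 and 3805 in apCAFs 1, 2 and 3, against 124 to 205 across nonapCAFs, so it did not share the low apCAFs 3 of Sftpc. The other keratins of the list, Krt8 and Krt18, overlapped between groups (log2 0.07 and -0.52). The part of epithelial RNA in the Pdgfa values was not tested.

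Pdgfc, the gene of the other chain that acts mainly through receptor alpha, lies on chromosome 3 (81036416 to 81214040, plus strand). It had 2801, 2819 and 1347 in apCAFs 1, 2 and 3, against 3252, 3117 and 3179 in nonapCAFs 4, 5 and 6. The nonapCAFs were close together, apCAFs 1 and 2 lay just under them and apCAFs 3 stood far below. The means were 2322 ± 845 in apCAFs against 3183 ± 67.6 in nonapCAFs, a log2 fold change of -0.53 (SE 0.33, 95% interval -1.36 to 0.30) that did not pass (limma adjusted p = 0.417). The authors' deposited table did not call it either (DESeq2 adjusted p = 0.219). The value rested on apCAFs 3: without it the log2 fold change was -0.18 (limma adjusted p = 0.398), and with apCAFs 3 alone against the nonapCAFs it was -1.24. Exons of Pdgfc overlap Gm16000 on the other strand, which read 150 to 252 in apCAFs and 284 to 319 in nonapCAFs.

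**Figure D2:**
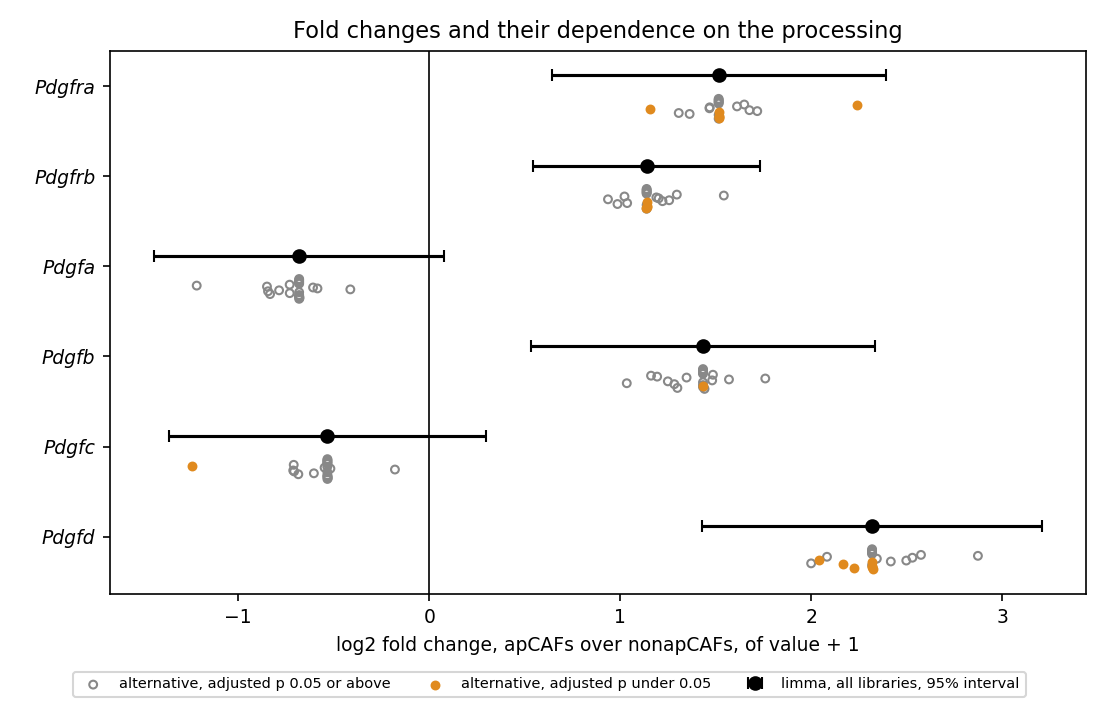
Log2 fold changes of the 6 PDGF genes, apCAFs over nonapCAFs, of value + 1. Black points with bars are limma estimates and 95% intervals over all libraries. The small points under them are the 22 alternatives, filled where the adjusted p was under 0.05. No gene changes sign, though only division by library totals and quantile normalization could have changed one. Pdgfd is the only gene with an adjusted p under 0.05 over all libraries.

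To compare levels between genes, values were divided by the length of each gene's annotated exons. Per kb of exon, Pdgfra had 5750 ± 2714 in apCAFs against 1889 ± 224 in nonapCAFs, and Pdgfrb had 4705 ± 1211 in apCAFs against 2108 ± 280 in nonapCAFs. Pdgfra was at percentile 96.7 of genes by level per kb in apCAFs and at percentile 90.1 in nonapCAFs, and Pdgfrb was at 95.9 in apCAFs and 91.1 in nonapCAFs. Pdgfa followed with 818.5 ± 239 per kb in apCAFs and 1287 ± 245 in nonapCAFs, then Pdgfc with 456.3 ± 166 per kb in apCAFs and 625.4 ± 13.3 in nonapCAFs. The rarest were Pdgfd, with 177.7 ± 63.8 per kb in apCAFs and 35.1 ± 10.6 in nonapCAFs, and Pdgfb, with 38.5 ± 9.2 in apCAFs against 14.7 ± 6.4 in nonapCAFs. The order of the ligands was the same in all 6 libraries. The order of the receptors was not: Pdgfrb led in apCAFs 1, nonapCAFs 4 and nonapCAFs 5, and Pdgfra in the other libraries. Neighbours came close in some libraries, as in apCAFs 3, where Pdgfc had 264.7 and Pdgfd 250.8 per kb of exon. These comparisons rest on the length used. Per kb of the longest coding transcript, Pdgfc had 382.6 and Pdgfd 252.6 in apCAFs 3, and Pdgfra was above Pdgfrb in every library (8434 and 4752 on average in apCAFs, 2771 and 2129 in nonapCAFs).

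**Figure D3:**
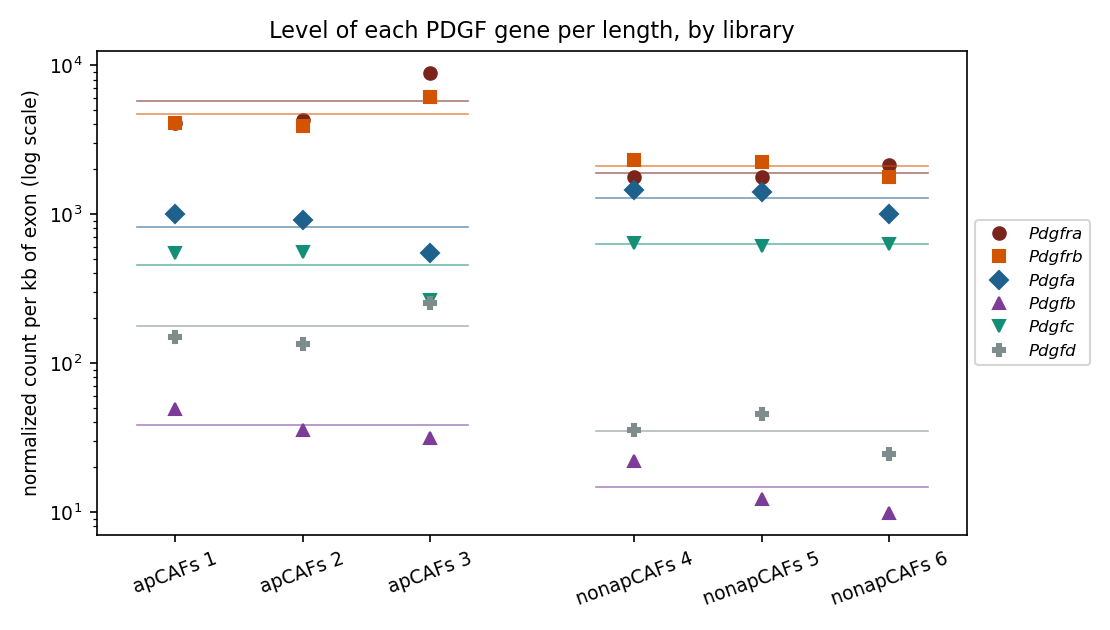
Normalized count per kb of exon for each PDGF gene in each library, on a log axis; points are libraries and thin lines are group means. The receptors lie above the ligands in every library, Pdgfa and Pdgfc above Pdgfd and Pdgfb, and Pdgfd lies just under Pdgfc in apCAFs 3 on this scale (250.8 and 264.7).

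The makeup of the ligand pool followed from these levels and is given as a description, chosen after the values were seen. Of the summed ligand level per kb, Pdgfd made up 8.56%, 8.13% and 22.9% in apCAFs 1, 2 and 3, against 1.64%, 2.20% and 1.47% in nonapCAFs 4, 5 and 6. Pdgfa made up 57.0%, 55.9% and 49.98% in apCAFs 1, 2 and 3, against 67.6%, 67.7% and 60.4% in nonapCAFs 4, 5 and 6. Pdgfa was the largest ligand share in every library, and the Pdgfd share was higher in each apCAFs library than in any nonapCAFs library. The Pdgfc share overlapped between groups (29.9% ± 5.0 in apCAFs and 32.3% ± 4.6 in nonapCAFs). Summed receptor over summed ligand level was 4.69, 5.01 and 13.7 in apCAFs 1, 2 and 3, against 1.89, 1.93 and 2.36 in nonapCAFs 4, 5 and 6, with the highest value again in apCAFs 3. These shares and ratios also rest on the length used. Annotated exons and longest coding transcript were 3.119 and 2.06 kb for Pdgfa, 5.089 and 3.521 kb for Pdgfc, and 3.154 and 3.131 kb for Pdgfd.

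**Figure D4:**
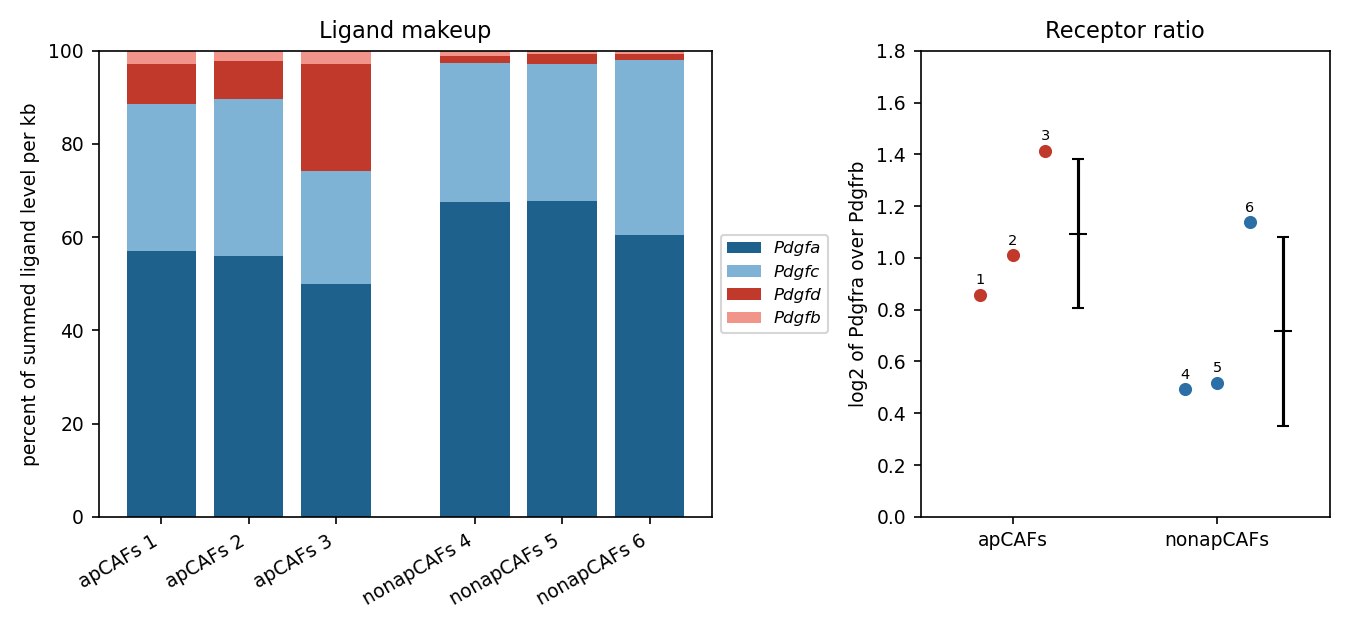
Left, percent of the summed ligand level per kb of exon taken by each ligand in each library; right, log2 of Pdgfra over Pdgfrb in each library, with mean ± SD (n = 3). Pdgfd takes 8.13% to 22.9% in apCAFs and 1.47% to 2.20% in nonapCAFs, while the receptor ratios of the groups overlap through nonapCAFs 6.

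Promoter windows show the sequence just before the start of the genes described above. They are shown for the called ligand, for the receptor of the gate, and for the ligand whose value rested on apCAFs 3. Each is the 250 bases before the RefSeq start on the plus strand of GRCm38.p6, and capitals mark matches to the motifs searched.
Pdgfd (chr9:6168236-6168485): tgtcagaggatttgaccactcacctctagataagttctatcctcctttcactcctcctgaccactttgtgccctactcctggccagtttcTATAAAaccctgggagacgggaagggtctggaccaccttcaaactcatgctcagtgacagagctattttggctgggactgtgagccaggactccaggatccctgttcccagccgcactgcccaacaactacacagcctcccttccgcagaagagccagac
Pdgfra (chr5:75152001-75152250): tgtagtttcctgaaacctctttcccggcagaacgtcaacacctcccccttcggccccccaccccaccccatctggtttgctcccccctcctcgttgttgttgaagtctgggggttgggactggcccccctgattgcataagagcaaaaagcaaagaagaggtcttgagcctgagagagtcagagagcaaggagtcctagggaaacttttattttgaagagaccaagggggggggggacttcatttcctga
Pdgfc (chr3:81036166-81036415): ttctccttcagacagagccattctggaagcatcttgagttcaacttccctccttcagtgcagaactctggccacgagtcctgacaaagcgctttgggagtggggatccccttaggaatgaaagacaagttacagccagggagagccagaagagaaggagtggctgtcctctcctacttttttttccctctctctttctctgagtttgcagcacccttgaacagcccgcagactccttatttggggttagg

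The motifs searched on both strands, with the share of all 32851 windows of this length that hold each, were TATAAA (12.4%), CCAAT (33.9%), GGGCGG (32.7%), the AP-1 site TGANTCA (6.75%), the STAT site TTCNNNGAA (7.02%) and the core of the interferon response element (2.98%). The only match in the 3 printed windows was TATAAA in Pdgfd, 160 to 155 bases before the start. The GC content was 53.6% for Pdgfd, 54.4% for Pdgfra and 50.8% for Pdgfc, against a median of 52.4% over all windows. A match is a description of letters, and its absence says nothing of the factor.

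Around the 6 genes, proteins that bind PDGF or process it were counted from a list of 13. Of these, 3 rose and 0 fell in limma (median log2 fold change 0.62), against 3.91% higher and 0.486% lower in the background. A further count, 8 higher and 1 lower, came from the authors' deposited table. Its own background was 20.6% higher and 9.77% lower among genes with an adjusted p. A2m, which encodes a protease inhibitor that binds growth factors, had 5577 ± 1739 in apCAFs against 442.3 ± 52.4 in nonapCAFs (log2 3.62, SE 0.26, limma adjusted p = 0.00981). Pdgfrl, named for its likeness to the PDGF receptors, had 1302 ± 307 in apCAFs against 352.3 ± 49.7 in nonapCAFs (3.65-fold, limma adjusted p = 0.0203). Sparc, a matrix protein known to bind chain B, had 346514 ± 101143 in apCAFs against 110138 ± 6939 in nonapCAFs (3.07-fold, limma adjusted p = 0.0298).

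Chains C and D are secreted in a latent form that proteases open. The activator genes were looked at after their values were seen, and none passed in limma. Plat, tissue plasminogen activator, which activates chain C, had 20661, 21472 and 41150 in apCAFs 1, 2 and 3, against 10329, 10840 and 6316 in nonapCAFs 4, 5 and 6 (2.95-fold, limma adjusted p = 0.0946). Plau, urokinase, which activates chain D, overlapped between groups, with 18380 ± 4266 in apCAFs against 22380 ± 6558 in nonapCAFs (limma adjusted p = 0.626). St14, the membrane protease matriptase, which also acts on chain D, read 194, 215 and 29 in apCAFs 1, 2 and 3, against 6, 22 and 14 in nonapCAFs 4, 5 and 6 (limma adjusted p = 0.166). It was high in the same 2 apCAFs libraries as the surfactant gene Sftpc, and the part of epithelial RNA in it was not tested. The authors' deposited table called Plat (log2 1.60, DESeq2 adjusted p = 1.01e-05) and St14 (log2 3.28, DESeq2 adjusted p = 0.000387) higher. Plau was not called there (DESeq2 adjusted p = 0.444), and 20.6% of genes with an adjusted p were higher.

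Genes for the signalling below the receptors gave no limma call, where 4.40% of all tested genes were called. Among genes with an adjusted p, 20.6% were higher and 9.77% lower in the authors' deposited table. Of 30 adaptors, kinases and STATs 0 passed (at an unadjusted p under 0.05, 5 were higher and 1 lower, and 6 higher and 4 lower in the authors' deposited table), with a median log2 fold change of -0.07. Akt1, a survival kinase gene among the most abundant of the list, had 25956 ± 3404 in apCAFs against 30431 ± 365 in nonapCAFs (limma adjusted p = 0.442). Of 15 genes that attenuate receptor signalling 0 passed in limma (at an unadjusted p under 0.05, 2 were higher and 0 lower, and 2 higher and 2 lower in the authors' deposited table), with a median of 0.03. Socs3, a cytokine feedback inhibitor, had 28570 ± 9939 in apCAFs against 13620 ± 605 in nonapCAFs (limma adjusted p = 0.118), and the ERK phosphatase gene Dusp6 had 14998 ± 772 in apCAFs against 16632 ± 1760 in nonapCAFs (limma adjusted p = 0.547).

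Immediate early genes, which growth factors including PDGF induce in cultured fibroblasts, had a median log2 fold change of 0.66, and 1 of 14 rose in limma while 7 were higher in the authors' deposited table. Over all genes, 3.91% were higher in limma and 20.6% in that table. The 1 of 14 is close to the limma share, while 7 of 14 is well above the share in that table. The called gene was Nr4a1, an orphan nuclear receptor, with 86526 ± 18096 in apCAFs against 24687 ± 4866 in nonapCAFs (3.51-fold, limma adjusted p = 0.0248). The most abundant, Jun, had 174316 ± 12183 in apCAFs against 109803 ± 25489 in nonapCAFs (limma adjusted p = 0.184), and Junb had 131801 ± 4110 in apCAFs against 95419 ± 26854 in nonapCAFs (limma adjusted p = 0.331).

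Among 15 genes of the receptor kinases closest to the PDGF receptors and of their ligands, 2 rose and 0 fell in limma (median log2 fold change 0.25), beside 3.91% higher and 0.486% lower over all tested genes. Kdr, a VEGF receptor gene, had 1843, 1914 and 3066 in apCAFs 1, 2 and 3, against 65, 77 and 36 in nonapCAFs 4, 5 and 6 (38.5-fold, limma adjusted p = 0.00966). Vegfc, a lymphatic growth factor gene, had 2943 ± 433 in apCAFs against 1591 ± 49.3 in nonapCAFs (1.84-fold, limma adjusted p = 0.0497). The fold change of Kdr was larger than that of any of the 6 PDGF genes, whose highest was 4.99.

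**Figure D5:**
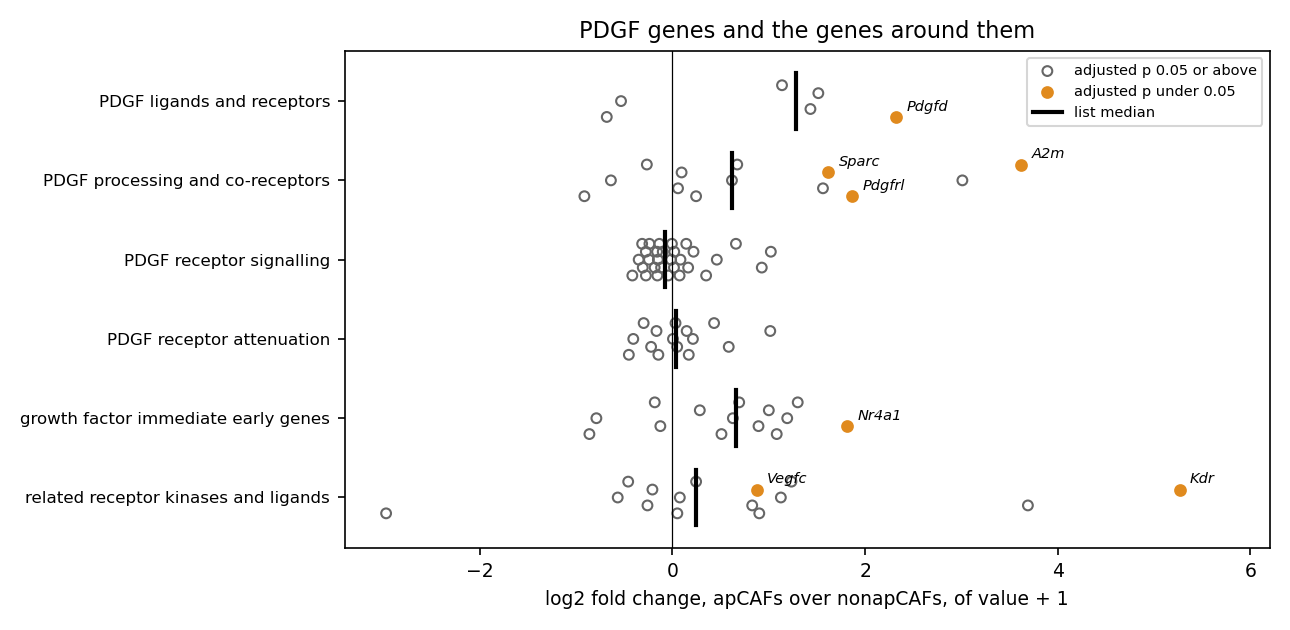
Log2 fold changes, apCAFs over nonapCAFs, of value + 1, for the 6 PDGF genes and 5 lists of genes around them; each circle is a gene, filled where the limma adjusted p was under 0.05, and vertical bars are list medians. Signalling and attenuation genes centre near 0 with none called, while 1 PDGF gene, Pdgfd, and 6 genes of the other lists are called. Of all tested genes, 4.40% are called.

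Genes with the most similar profiles were found by the distance between centred log2 values over the 6 libraries, among genes whose mean value reached 1000, as a description. Nearest to Pdgfra were Smarca2, a chromatin remodelling gene (distance 0.0766), Ndn (0.0862) and the oncostatin M receptor gene Osmr (0.154). Smarca2 had 4000, 4246 and 8354 in apCAFs 1, 2 and 3 and 1693, 1772 and 2122 in nonapCAFs 4, 5 and 6, so it shared the high apCAFs 3. Nearest to Pdgfrb were P3h4 (0.0616), Anxa6 (0.106) and Cercam (0.113). Nearest to Pdgfd were Ch25h, the cholesterol 25-hydroxylase gene (0.279), Fgl2 (0.28) and the calcium pump gene Atp2b4 (0.338).

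Nearest to Pdgfc were the mitotic kinase gene Melk (0.0808), the kinetochore gene Pmf1 (0.104) and the cytokinesis gene Racgap1 (0.114), and nearest to Pdgfa were Mcph1 (0.145), the replication gene Mcm10 (0.147) and Lrrc17 (0.162). Racgap1 had 11115, 10784 and 5635 in apCAFs 1, 2 and 3 and 12835, 12667 and 12125 in nonapCAFs 4, 5 and 6. None of these 6 genes passed in limma (adjusted p = 0.291 to 0.439). Pdgfb had no close neighbour. The nearest were Acta2, smooth muscle actin (0.68), Serpina3g (0.726) and Kcne4 (0.732).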

How the data were processed

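RNA-seq was measured in 6 sorted fibroblast libraries. Per the file headers, the authors deposited normalized counts, treated here as a score and not as raw counts. They are whole numbers, with gaps in some libraries, as scaling before rounding would leave. Of the numbers 1 to 30, 8 are unused in apCAFs 3, 3 in apCAFs 2 and 0 in each of the other libraries. The submitters list Trim Galore, Bowtie2, DESeq2 and mm10 in their processing notes, with no roles, while the sources used here give no counter, annotation or strand setting. The authors' deposited table adds log2 values, a fold change as a ratio, a p-value and adjusted p-value from DESeq2, and the GC percent, which was not used.

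limma 3.58.1 (R 4.3.3) was fitted to log2(value + 1), group as the only term, on 36443 genes above 0 in at least 1 library, without a variance trend, Benjamini-Hochberg adjusted, called at 0.05. The fit was tested on simulated data. Exon lengths came from GENCODE M21 (GRCm38), where 55117 of 55298 gene IDs were found and 99.5% of those had identical coordinates. Promoters were from RefSeq (GRCm38.p6) and were found for Pdgfra, Pdgfa, Pdgfc and Pdgfd; those of Pdgfa lie within the annotated gene and were not printed. Named genes are the 6 genes, up to 5 called genes per list, the 2 most abundant where fewer than 2 were called, and the 3 nearest profiles per gene. A gene that this rule names is not reported here. The genes and lists were chosen with earlier results of these data known.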

Additional observations from a re-analysis of the deposited data

How the results depend on the processing

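All 6 genes kept the sign of their fold change in each of the 22 alternatives, but for most of these that was fixed in advance. Since the groups did not overlap for these genes, leaving out or averaging libraries or changing the pseudocount could not change a sign. Filters, the variance trend and the pairings leave the fold change as it is. Only division by library totals and quantile normalization could have changed a sign. The number of calls did not hold. limma called 1602 genes as reported, and 2527 with a pseudocount of 10, 2465 and 2748 when the mean had to reach 10 and 100, 436 with no filter, 3453 with a variance trend, 310 to 1791 with a library left out and 4575 with apCAFs 3 alone. It called 0 genes with apCAFs 1 and 2 and nonapCAFs 4 and 5 averaged (4706 at an unadjusted p under 0.05) and 0 under each of the 6 pairings (5316 to 6680). Of the 6 PDGF genes, 1 was called as reported, 3 with a pseudocount of 10, 3 and 4 when the mean had to reach 10 and 100, 0 with no filter and 0 with quantile normalization (4 and 3 at an unadjusted p under 0.05), 3 with a variance trend, 0 to 2 with a library left out, 2 with apCAFs 3 alone, 0 with pairs averaged and 0 under each pairing (4 to 5 at an unadjusted p under 0.05). Filters change the number of genes tested, and averaging, pairing and leaving libraries out give fewer degrees of freedom by construction. Otherwise the cause was not tested.

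Pdgfd lost its call in 15 of 22 alternatives, with adjusted p from 0.00405 to 0.224 over all of them. Pdgfra gained a call in 6, Pdgfrb in 4, Pdgfb in 1 and Pdgfc in 1. The median of all genes was -0.04 as deposited, -0.18 divided by library totals and -0.19 quantile-normalized, and the called genes split into 1425 higher and 177 lower as deposited and 1049 higher and 281 lower quantile-normalized; on these scalings Pdgfa was -0.83 and -0.73 and Pdgfra 1.36 and 1.31. The receptor ratio difference was 0.22 to 0.59 with a library left out. With apCAFs 3 alone, its spread is assumed to be that of the nonapCAFs, so those calls carry no replicate check. The labels number the libraries 1 to 6 without saying which share an experiment, so no pairing was chosen and all 6 possible pairings were fitted.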
